A study of Mus musculus with 12 samples.

Results

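The genes H2-D1, H2-K1, B2m, Tap1, Tap2, Tapbp, Psmb8, Psmb9, Psmb10 and Nlrc5 of MHC class I antigen presentation, 10 of the 55401 genes listed, were followed in 12 RNA-seq samples of adult neural stem/progenitor cells (aNSPCs). The genes were taken by symbol from a list selected on measured values of these samples: it was drawn up with the NAD+ against Ctrl differences and the FPKM levels known, and which of them decided is not recorded. The values below are therefore a description of the listed genes, and each p-value belongs to its own gene. aNSPCs were isolated from the forebrain of C57BL/6 mice aged 8 to 10 weeks and cultured with EGF, FGF-2 and B27. Cells under proliferating conditions and cells under differentiation conditions, the latter with 1 µM retinoic acid and 5 µM forskolin, were each sampled without NAD+ (Ctrl) or with 1 mM NAD+, with 3 samples in each of the 4 groups. No transgene or mutation is named in the labels. The study calls the samples of a group biological repeats. The labels do not say whether these came from separate mice or cultures, so the p-values measure only the spread between these samples. A field of the labels lists all 12 samples as untreated, and the groups used here follow the sample titles. Values are FPKM, mapped fragments divided by transcript length and by the total mapped in that sample, so levels can be set side by side between genes. The values were deposited with 2 decimals, from which read numbers cannot be worked back, and the depth is unknown. The values of a sample summed to between 308828 and 363330.

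MHC class I molecules carry short peptides from inside the cell to its surface, where CD8+ T cells read them. Each molecule is a heavy chain, of which H2-D1 and H2-K1 encode the main classical forms of the mouse, bound to the light chain beta-2-microglobulin (B2m). The peptides are cut by the proteasome, in which the interferon-inducible subunits Psmb8, Psmb9 and Psmb10 can replace the constitutive catalytic subunits to form the immunoproteasome. The transporter subunits Tap1 and Tap2 carry the peptides into the endoplasmic reticulum, and tapasin (Tapbp) holds the empty molecule at the transporter for loading. Nlrc5 encodes the transactivator of class I promoters. In the healthy brain, neural cells are known for low class I levels.

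Before the class I values, the makeup of the cultures was checked with marker lists. Of 13 microglia and macrophage markers, 0 reached 1 FPKM in any sample, and their summed level lay between 0 and 0.95 FPKM over the 12 samples. Of 8 endothelial markers, 0 reached 1 FPKM, with sums between 0.40 and 0.94 FPKM. The 6 neural stem/progenitor markers summed to between 2330 and 2566 FPKM in proliferating Ctrl and to between 1323 and 1828 FPKM with NAD+, and to between 592 and 645 and between 480 and 568 FPKM in the differentiating groups. Fabp7 made up most of these sums, with means of 2107 and 1317 FPKM in proliferating Ctrl and NAD+ samples and 449 and 369 FPKM in differentiating ones. The mean of Sox2 was also lower with NAD+ (225 and 216, 147 and 135 FPKM). The mean of Nes was higher with NAD+ in both conditions (68.8 and 82.0, 9.92 and 11.6 FPKM). No spread or test is given here for these means. The study reported that NAD+ lowered Nestin and Sox2 in both mRNA and protein, so the Nes means here went the other way. The 8 astrocyte markers summed to between 1644 and 1766 FPKM in differentiating Ctrl and to between 1996 and 2108 FPKM with NAD+, whereas in proliferating cells they summed to between 1117 and 1196 FPKM in Ctrl and to between 911 and 1066 FPKM with NAD+. Gfap, the intermediate filament of astrocytes, had means of 595 and 977 FPKM in the differentiating groups, and Aldoc, an enzyme of glycolysis, 333 and 261 FPKM. The 7 oligodendrocyte lineage markers summed to between 327 and 364 FPKM in differentiating Ctrl and to between 218 and 238 FPKM with NAD+, and to between 375 and 409 and between 320 and 352 FPKM in the proliferating groups. None of these 3 sums overlapped between Ctrl and NAD+ in either condition. The 7 neuron markers overlapped in both. They summed to between 22.4 and 33.2 FPKM in proliferating Ctrl and to between 29.0 and 31.7 FPKM with NAD+. In the differentiating groups they summed to between 30.1 and 35.5 and between 30.7 and 31.2 FPKM. In bulk samples, more cells of a type and more RNA per cell cannot be told apart.

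Of the listed genes, 7 lie in or beside the H2 complex on chromosome 17 (GRCm38, mm10). Psmb9 (chr17:34181987-34187764, minus strand), Tap1 (chr17:34187553-34197225), Psmb8 (chr17:34197721-34201454) and Tap2 (chr17:34203527-34216321) form a cluster of 34.3 kb. H2-K1 (chr17:33996017-34000347, minus strand) and Tapbp (chr17:33915899-33929292) lie on its centromeric side, and H2-D1 (chr17:35262730-35267499) starts 1.27 Mb from H2-K1. B2m (chr2:122147686-122153083), Nlrc5 (chr8:94434356-94527272) and Psmb10 (chr8:105935735-105938444, minus strand) lie on other chromosomes.

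The promoters of the 3 genes that rose are printed here because they hold the same kinds of motif (a choice made after their values were seen), and the stretch between Psmb9 and Tap1 because both genes start in it. RefSeq windows (GRCm38.p6) from 250 bases before to 50 after the start site were found for 8 of the 10 genes, all but Nlrc5 and Tap2. Windows run 5′ to 3′ on the strand of the gene, which is the minus strand for H2-K1. Capitals mark matches, on either strand, to the NF-kB (kappaB) consensus, to the interferon regulatory factor (IRF) core AANNGAAA or to the interferon-gamma activated site (GAS) motif TTCNNNGAA. The H2-D1 window is chr17:35262844-35263143, the H2-K1 window chr17:34000298-34000597, the B2m window chr2:122147437-122147736 and the shared stretch chr17:34187306-34187580, shown on the plus strand.
H2-D1: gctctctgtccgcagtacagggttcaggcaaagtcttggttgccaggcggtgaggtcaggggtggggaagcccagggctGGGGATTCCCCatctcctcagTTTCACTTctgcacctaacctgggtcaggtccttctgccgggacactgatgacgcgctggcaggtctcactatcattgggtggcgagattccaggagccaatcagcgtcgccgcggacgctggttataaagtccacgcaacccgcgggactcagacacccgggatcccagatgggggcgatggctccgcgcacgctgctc
H2-K1: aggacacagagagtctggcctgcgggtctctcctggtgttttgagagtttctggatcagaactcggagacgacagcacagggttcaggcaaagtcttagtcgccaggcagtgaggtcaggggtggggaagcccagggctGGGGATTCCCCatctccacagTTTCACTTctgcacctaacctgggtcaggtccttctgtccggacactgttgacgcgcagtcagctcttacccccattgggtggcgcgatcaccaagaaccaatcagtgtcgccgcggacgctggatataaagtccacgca
B2m: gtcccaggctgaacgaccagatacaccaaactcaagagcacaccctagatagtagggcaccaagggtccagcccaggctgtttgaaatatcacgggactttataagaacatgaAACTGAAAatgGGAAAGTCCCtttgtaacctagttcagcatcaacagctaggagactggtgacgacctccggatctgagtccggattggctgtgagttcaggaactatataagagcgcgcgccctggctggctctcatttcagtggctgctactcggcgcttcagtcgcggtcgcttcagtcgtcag
Psmb9 and Tap1: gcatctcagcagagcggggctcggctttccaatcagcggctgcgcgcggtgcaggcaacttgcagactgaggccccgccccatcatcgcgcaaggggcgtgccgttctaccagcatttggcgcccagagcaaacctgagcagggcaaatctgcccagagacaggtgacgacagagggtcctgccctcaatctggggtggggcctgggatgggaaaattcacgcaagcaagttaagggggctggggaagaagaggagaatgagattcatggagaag

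With the start site as base 0, the IRF match began at base -150 in H2-D1, -90 in the printed window of H2-K1 and -137 in B2m. The kappaB matches of H2-D1 and H2-K1 lie in a run of 47 bases that both windows share, the longest they have in common, and the 2 matches within each overlap. In B2m the kappaB match began at base -126, next to the IRF match. All 3 windows also held TGACG, a core of cyclic AMP response elements, and CCAAT. Among 32851 promoter windows, 8.46% held the kappaB consensus, 23.9% the IRF core, 8.30% the GAS motif, 20.8% TGACG and 37.4% CCAAT on either strand. The Psmb9 and Tap1 windows, on opposite strands, have 275 of their 300 bases in common, with 1 TGACG and 1 CCAAT and none of the 3 motifs in capitals. The Psmb8 window held 1 GAS match, the Tapbp window only 2 CCAAT, and the Psmb10 window none of the 5 motifs. H2-K1 had another RefSeq window, chr17:34000284-34000583, for a different start site. It held the same motifs, with the IRF match beginning at base -104. A match is a description of letters and does not show binding.

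Under differentiation conditions, both heavy chains and the light chain rose with NAD+. H2-D1 was at 46.19, 44.66 and 47.00 FPKM in the Ctrl samples and at 106.79, 100.06 and 94.67 FPKM in the NAD+ samples, a ratio of means of 2.19. The groups were far apart compared with their spread, with SDs of 1.19 and 6.07 FPKM. On the log2(FPKM + 0.1) scale the difference was 1.13 ± 0.06 (SE), with an adjusted p-value of 0.00103 in limma.

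B2m, the light chain that every class I molecule needs, was at 125.79, 132.64 and 149.25 FPKM in Ctrl and at 213.16, 239.43 and 235.26 FPKM with NAD+. It was the most abundant of the 10 genes in each group, and its lowest NAD+ sample lay above its highest Ctrl sample. The ratio of means was 1.69, with a log2 difference of 0.76 ± 0.08 (SE) and an adjusted limma p-value of 0.0072.

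H2-K1 was at 18.43, 20.37 and 17.05 FPKM in Ctrl and at 37.00, 29.29 and 26.65 FPKM with NAD+. The NAD+ samples were all higher, but they spread more widely than those of H2-D1. The ratio of means was 1.66, with a log2 difference of 0.72 ± 0.13 (SE) and an adjusted limma p-value of 0.0282. Leaving out Ctrl replicate 1, 2 or 3 ended this call (adjusted limma p-value 0.0971, 0.0635 and 0.0874), as did leaving out NAD+ replicate 2 (0.0674). It was also lost without moderation of the variance, with an adjusted p-value of 0.106. The heavy chains are related members of a gene family, and uniquely mapped reads may be split unevenly among them where their sequences are alike.

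**Figure D1:**
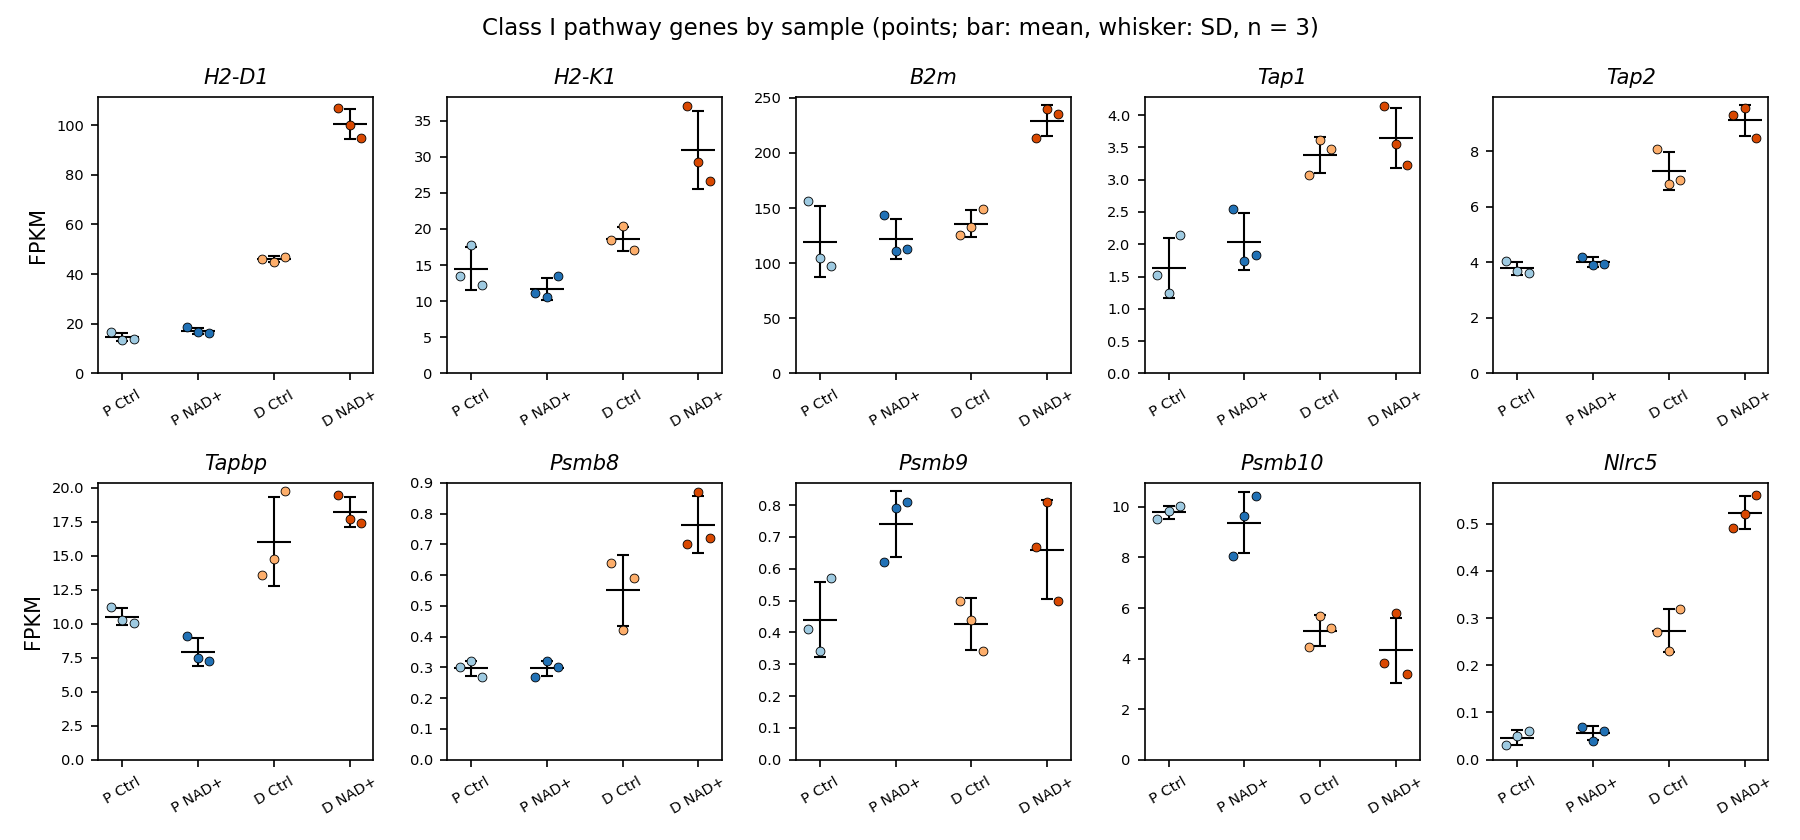
FPKM (linear axes from 0) of the 10 genes in every sample of the proliferating (P) and differentiating (D) groups; points are samples, horizontal bars means and whiskers SD (n = 3). In H2-D1, H2-K1, B2m, Tap2, Psmb8 and Nlrc5 every differentiating NAD+ sample sits above every differentiating Ctrl sample, and Psmb10 is lower in all differentiating samples than in all proliferating ones.

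The peptide supply genes did not pass the test under differentiation conditions. Tap2 was at 8.08, 6.82 and 6.96 FPKM in Ctrl and at 9.30, 9.54 and 8.49 FPKM with NAD+, which did not overlap. Its log2 difference was 0.32 ± 0.09 (SE) with an adjusted limma p-value of 0.0878, and it passed only with median-ratio scaling (0.0399) or quantile normalization (0.0462). Tap1, its partner in the transporter, was at 3.07 to 3.61 FPKM in Ctrl and at 3.22 to 4.14 FPKM with NAD+, with a log2 difference of 0.10 ± 0.12 (SE) and an adjusted p-value of 0.667. Tapbp was at 13.57, 14.76 and 19.74 FPKM in Ctrl and at 19.47, 17.71 and 17.44 FPKM with NAD+, so that Ctrl replicate 3 exceeded all NAD+ samples. Tapbp overlaps Zbtb22 on the same strand and an antisense gene that reached 17.24 and 10.82 FPKM, and reads from the overlap cannot be told apart.

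The immunoproteasome subunits differed from each other in level. Psmb8 and Psmb9 stayed under 1 FPKM in every sample, whereas Psmb10 lay between 3.37 and 10.42 FPKM. Under differentiation conditions, Psmb8 was at 0.64, 0.42 and 0.59 FPKM in Ctrl and at 0.70, 0.87 and 0.72 FPKM with NAD+, without overlap, and its adjusted limma p-value was 0.268. Psmb9 was at 0.50, 0.44 and 0.34 FPKM in Ctrl and at 0.67, 0.81 and 0.50 FPKM with NAD+, with the lowest NAD+ sample level with the highest Ctrl sample and an adjusted p-value of 0.237. Psmb10 was the only one of the 10 genes with a lower NAD+ mean, at 5.11 ± 0.62 FPKM in Ctrl and 4.33 ± 1.29 FPKM with NAD+ (SD, n = 3), and its groups overlapped (adjusted p-value 0.493). Tap1 and Psmb9 share 212 bases on opposite strands, and an antisense gene that reached 2.06 FPKM covers Psmb10. Whether the counting used strand is not given in the sources used here.

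Nlrc5, the transactivator, had the lowest level of the 10 genes in each group. It was at 0.27, 0.23 and 0.32 FPKM in differentiating Ctrl and at 0.49, 0.52 and 0.56 FPKM with NAD+. The groups did not overlap, and the ratio of means was 1.91. The log2 difference was 0.75 ± 0.20 (SE), which is understated at such levels by the added 0.1, and the adjusted limma p-value was 0.0817.

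In counts, 3 of the 10 genes were called higher under differentiation conditions at an adjusted p-value under 0.05, and 0 lower, where 2.27% of the 19611 genes tested were called higher and 4.65% lower. Every NAD+ sample lay above every Ctrl sample for 6 of the 10 genes, against 9.68% of all genes tested, and below for 0, against 21.1%. The median log2 difference of the 10 genes was 0.47, beside -0.08 for all genes tested. As the genes were listed with these results known, nothing is read from these shares. The 3 genes of the class I molecule itself were the ones called, at log2 differences between 0.72 and 1.13, and the other 7 lay between -0.26 and 0.75. The marker sums of astrocytes (higher with NAD+), oligodendrocyte lineage and neural stem/progenitor cells (both lower) also differed under differentiation conditions. The astrocyte sum rested largely on Gfap, with the mean of Aldoc lower, and the stem/progenitor sum on Fabp7, with the mean of Nes higher. The part of these markers in the class I values was not tested.

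Under proliferating conditions, 0 of the 9 genes tested passed the test, and Nlrc5 stayed below the filter on low values, a mean of 0.1 FPKM, at 0.03 to 0.07 FPKM. Of the 18597 genes tested in limma, 0.0484% were called higher and 0.0968% lower, and 2 of the 9 genes had an unadjusted p-value under 0.05, against 15.4% of all genes tested. H2-D1 was at 16.52, 13.59 and 13.72 FPKM in Ctrl and at 18.48, 16.63 and 16.17 FPKM with NAD+, an overlap with a log2 difference of 0.23 ± 0.11 (SE). H2-K1 was at 13.44, 17.82 and 12.22 FPKM in Ctrl and at 11.10, 10.58 and 13.46 FPKM with NAD+, a log2 difference of -0.29 ± 0.17 (SE). B2m spread from 97.61 to 156.39 FPKM in Ctrl and from 111.22 to 143.32 FPKM with NAD+. The groups of these 3 genes overlapped, and their adjusted p-values were 0.366, 0.432 and 0.917.

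Those with an unadjusted p-value under 0.05 were Psmb9 and Tapbp, in opposite directions. Psmb9 was at 0.41, 0.34 and 0.57 FPKM in proliferating Ctrl and at 0.62, 0.79 and 0.81 FPKM with NAD+, with an adjusted limma p-value of 0.280. Tapbp was at 11.26, 10.27 and 10.06 FPKM in Ctrl and at 9.13, 7.48 and 7.24 FPKM with NAD+, with an adjusted limma p-value of 0.199. They were the only 2 of the 9 whose groups did not overlap, where 15.5% of all genes tested had every NAD+ sample above and 8.59% every NAD+ sample below. The median log2 difference of the 9 genes was 0.06, beside 0.07 for all genes tested.

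**Figure D2:**
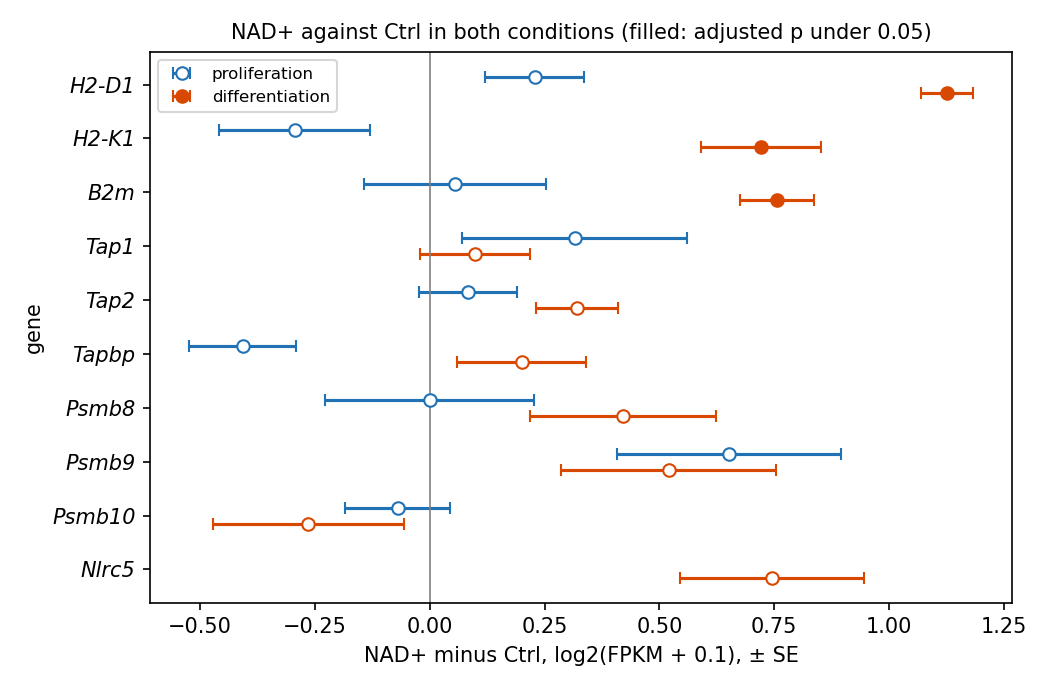
Log2 difference of NAD+ minus Ctrl, on the log2(FPKM + 0.1) scale with its SE, for each gene under proliferating (blue) and differentiation (orange) conditions; filled points have an adjusted limma p-value under 0.05. H2-D1, H2-K1 and B2m are filled under differentiation conditions, at 1.13, 0.72 and 0.76, and no point is filled under proliferating conditions, where Nlrc5 was below the filter.

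Whether NAD+ acted unequally in the 2 conditions was tested directly, by a contrast in a limma fit of all 12 samples. H2-D1 passed, with an effect larger under differentiation conditions by 0.90 ± 0.12 (SE, log2) and an adjusted p-value of 0.0177. It was the only one called of the 10 genes, where 0.221% of 19498 genes were called higher and 0.246% lower. The H2-D1 call was lost without proliferating NAD+ replicate 3 (adjusted limma p-value 0.0641) and without differentiating Ctrl replicate 1, 2 or 3 (0.0555, 0.0543 and 0.05355). H2-K1 had the larger difference, 1.02 ± 0.23 (SE), but an adjusted p-value of 0.0818, and B2m had 0.70 ± 0.23 (SE) with 0.202. Tapbp had 0.61 ± 0.19 (SE) and an adjusted p-value of 0.183. The median over the 10 genes was 0.51, beside -0.16 for all genes tested.

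The levels also differed between the conditions, which are given side by side without a test because the sources used here do not say whether the 2 tables were scaled together. In Ctrl samples, H2-D1 had a mean of 14.6 FPKM under proliferating and of 46.0 FPKM under differentiation conditions, a ratio of 3.15, and Nlrc5 had 0.047 and 0.27 FPKM, a ratio of 5.86. Tap1 (ratio 2.07), Tap2 (1.93), Psmb8 (1.85) and Tapbp (1.52) were also higher in every differentiating Ctrl sample than in every proliferating one. Psmb10 went the other way, from 9.79 to 5.11 FPKM. H2-K1, B2m and Psmb9 overlapped, with ratios of 1.28, 1.14 and 0.97.

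In the NAD+ samples, H2-K1 and B2m no longer overlapped between the conditions, with ratios of 2.64 and 1.87, and H2-D1 reached a ratio of 5.88. Thus 6 of the 10 genes in Ctrl samples and 8 in NAD+ samples were higher in every differentiating sample, where 27.9% and 24.6% of 19498 genes were. Psmb10 was the 1 gene lower in every differentiating sample in both, where 33.9% and 41.7% of genes were. Psmb9 overlapped in both.

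The order of the levels was B2m, H2-D1 and H2-K1 in each group, with Nlrc5 last. In proliferating Ctrl, H2-D1 at 14.6 ± 1.66 FPKM and H2-K1 at 14.5 ± 2.94 FPKM (SD, n = 3) did not differ beyond their spread. In differentiating NAD+ samples, H2-D1 at 100.5 ± 6.07 FPKM lay well above H2-K1 at 31.0 ± 5.38 FPKM. Psmb10 was at rank 5 of 10 in proliferating Ctrl, below Tapbp, and at rank 4 in proliferating NAD+ samples, where the mean of Tapbp was lower. Under differentiation conditions it was at rank 6, below Tap2. Psmb8 and Psmb9, at means between 0.30 and 0.76 FPKM, changed places between the conditions.

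Ratios within a sample do not depend on how the samples were scaled. Under differentiation conditions, H2-D1 was at 36.7%, 33.7% and 31.5% of the B2m level in Ctrl and at 50.1%, 41.8% and 40.2% with NAD+. The groups did not overlap (exact two-sided permutation test, p = 0.10, the smallest that 3 against 3 samples allow). H2-K1 was at 13.8% ± 2.10 of B2m in Ctrl and at 13.6% ± 3.25 with NAD+ (SD, n = 3), which overlapped. H2-D1 was at 249% ± 28.3 of the H2-K1 level in differentiating Ctrl and at 328% ± 35.2 with NAD+, without overlap. In proliferating samples the same ratio was 104% ± 24.5 in Ctrl and 148% ± 24.5 with NAD+, with overlap.

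For the proteasome, each inducible subunit was set against the constitutive subunit whose place it takes. Psmb8 was at 0.904% ± 0.265 of Psmb5 in differentiating Ctrl and at 1.35% ± 0.157 with NAD+, without overlap. Psmb9 was at 1.14% ± 0.245 of Psmb6 in differentiating Ctrl and at 2.05% ± 0.432 with NAD+, and at 0.613% ± 0.189 and 1.06% ± 0.142 in proliferating cells (SD, n = 3). Neither condition showed overlap for Psmb9. Psmb10 stayed between 14.7% and 25.6% of Psmb7 over the 12 samples, with overlap in both conditions. Psmb5, Psmb6 and Psmb7 themselves had adjusted limma p-values of 0.341, 0.070 and 0.153 under differentiation conditions, with log2 differences of -0.13, -0.22 and -0.14. With the ratio of Tap1 to Tap2, which overlapped in both conditions, 7 ratios were compared in both conditions, and after Benjamini-Hochberg adjustment over these 14 exact permutation tests the smallest p-value was 0.28.

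**Figure D3:**
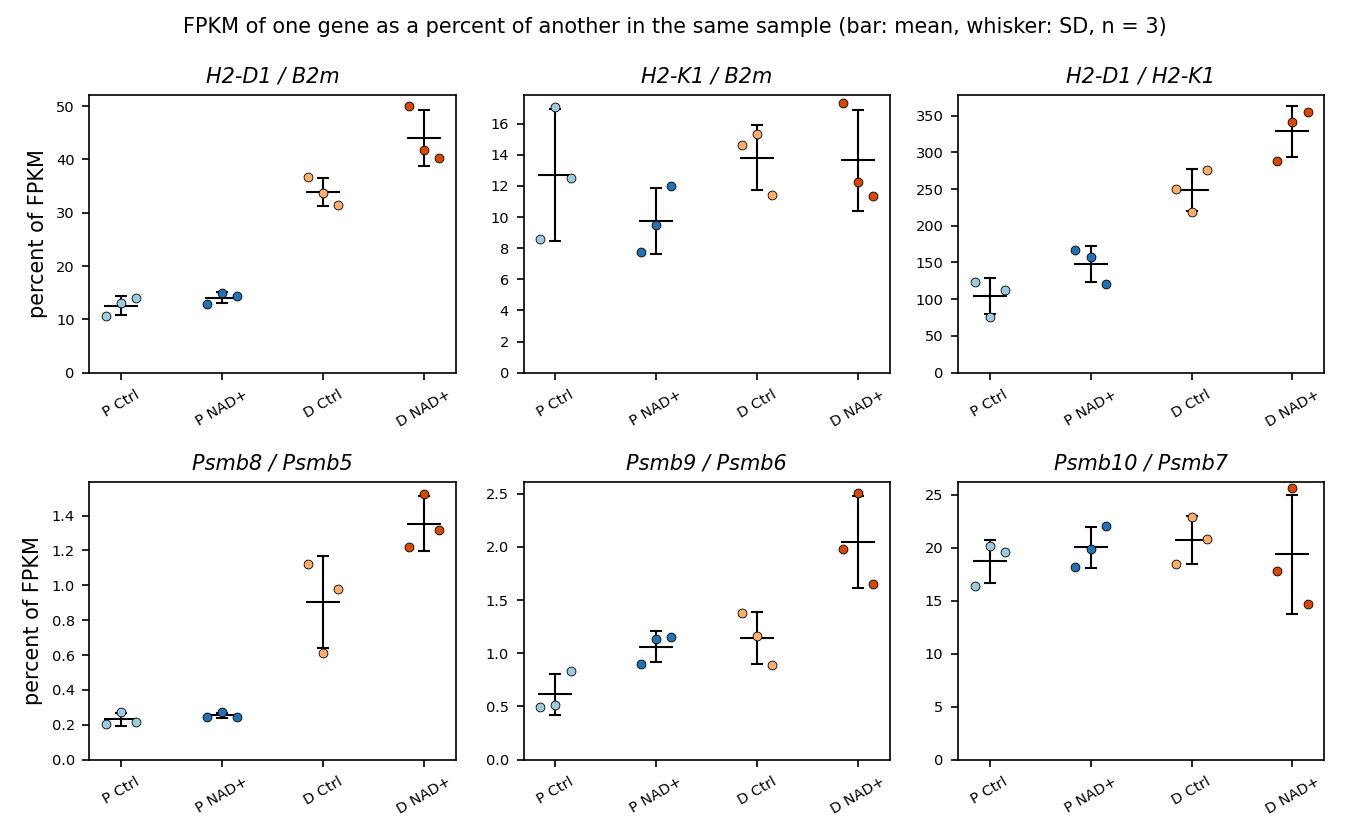
FPKM of one gene as a percent of that of another in the same sample, for the proliferating (P) and differentiating (D) groups; points are samples, horizontal bars means and whiskers SD (n = 3), with axes from 0. H2-D1 over B2m, H2-D1 over H2-K1, Psmb8 over Psmb5 and Psmb9 over Psmb6 have no overlap between differentiating Ctrl and NAD+ samples, whereas H2-K1 over B2m stays at means of 13.8% and 13.6%.

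Among other genes of the class I family, H2-Q4, H2-T23 and H2-Q7 rose with NAD+ under differentiation conditions. Of 18 other heavy chain and class I-like genes, 13 were tested under differentiation conditions. Of these, 3 rose with NAD+ and 0 fell, beside 2.27% and 4.65% of all genes tested, with a median log2 difference of 0.28. H2-Q4, a nonclassical heavy chain, was at 10.72, 9.32 and 11.89 FPKM in Ctrl and at 21.04, 18.57 and 20.46 FPKM with NAD+, a log2 difference of 0.91 ± 0.10 (SE) with an adjusted limma p-value of 0.0078. H2-T23, which encodes Qa-1, a ligand of NK cell receptors, was at 3.52, 4.0 and 3.85 FPKM in Ctrl and at 8.35, 6.77 and 5.93 FPKM with NAD+, with a log2 difference of 0.86 ± 0.13 (SE) and an adjusted p-value of 0.0188. H2-Q7, named after its values were seen and under 1 FPKM in these samples, was at 0.31 to 0.37 FPKM in Ctrl and at 0.70 to 0.76 FPKM with NAD+ (adjusted p-value 0.0282).

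H2-Q4 was called without any one sample, whereas the other two lost their calls. For H2-T23 the adjusted limma p-value was 0.0733, 0.0577 and 0.0630 without Ctrl replicate 1, 2 or 3 and 0.0538 without NAD+ replicate 2. For H2-Q7 it lay between 0.0742 and 0.0907 without any one sample. Under proliferating conditions 0 of the 13 genes tested passed, and 1 had an unadjusted limma p-value under 0.05 (15.4% of all genes tested). Of the more distant class I-like genes, Cd1d1, which presents lipids, was at 4.10 to 4.78 FPKM in differentiating Ctrl and 3.91 to 4.86 FPKM with NAD+, and Mr1 at 4.58 to 4.99 and 4.39 to 5.06 FPKM.

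The general machinery around the class I pathway did not pass the test. Under differentiation conditions 0 of 8 peptide loading partners (median log2 difference -0.09), 0 of 4 proteasome activator genes (-0.07), 0 of 15 genes of the constitutive proteasome core and its assembly (-0.14) and 0 of 8 promoter partners of NLRC5 (-0.18) were called. In the core list 1 of 15 differences was above 0, where 38.2% of all genes tested were. At an unadjusted limma p-value under 0.05 there were 5, 3, 7 and 3 genes in these 4 lists, of 8, 4, 15 and 8, and 0 in the class II list, where 24.2% of all genes tested were. Of the class II pathway, 8 of 11 genes were tested and 0 called, and Ciita, the class II transactivator related to Nlrc5, lay between 0.03 and 0.15 FPKM in all samples. Cd74, the class II invariant chain, was listed at 0 in 1 sample of each differentiating group and reached 1.48 FPKM in another.

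Of 25 interferon and NF-kB regulators, 23 were tested under differentiation conditions, of which 1 rose and 0 fell, beside 2.27% and 4.65% of all genes tested. The median log2 difference was 0.19. Every NAD+ sample lay above every Ctrl sample for 10 of the 23 and below for 2, against 9.68% and 21.1% of all genes tested. At an unadjusted limma p-value under 0.05 there were 8 of 23, against 24.2%. The gene that rose was Ifngr2, a chain of the interferon-gamma receptor, at 4.66, 5.30 and 4.52 FPKM in Ctrl and 6.57, 7.26 and 6.57 FPKM with NAD+ (log2 difference 0.49 ± 0.09, SE, adjusted limma p-value 0.0280). The call was lost without Ctrl replicate 1 or 3 (0.0991 and 0.0869) and without NAD+ replicate 1, 2 or 3 (0.0671, 0.0751 and 0.0764). Irf1, a factor known to bind class I promoters, was at 2.02 to 2.14 FPKM in Ctrl and 2.21 to 2.47 FPKM with NAD+ (adjusted limma p-value 0.303), and Ifngr1 had an adjusted p-value of 0.476. Ifng and Ifnb1, the genes of the ligands, were listed at 0 in all 12 samples.

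The other genes that lie between H2-K1 and H2-D1 were called about as often as all genes. Of 132 such genes, 83 were tested under differentiation conditions, of which 2 rose and 4 fell with NAD+, beside 2.27% and 4.65% of all genes tested, with a median log2 difference of 0.00 beside -0.08. Ppt2 and Neu1, genes of lysosomal enzymes, rose by log2 differences of 0.42 and 0.37, with adjusted limma p-values of 0.0192 and 0.0499. Col11a2, a collagen gene, fell by 0.89, Ddah2 by 0.77 and Lsm2, an RNA-binding protein gene, by 0.76 on the log2 scale, with adjusted p-values of 0.0113, 0.0045 and 0.0263. Of these 5, Ddah2 was called without any one sample. Col11a2 lost its call without Ctrl replicate 1 (adjusted limma p-value 0.0550), Neu1 without any one of the 6 samples (0.0626 to 0.151), Ppt2 without Ctrl replicate 1 or 3 or NAD+ replicate 1 or 2 (0.0517 to 0.0748) and Lsm2 without any one sample but Ctrl replicate 2 (0.0648 to 0.0962).

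**Figure D4:**
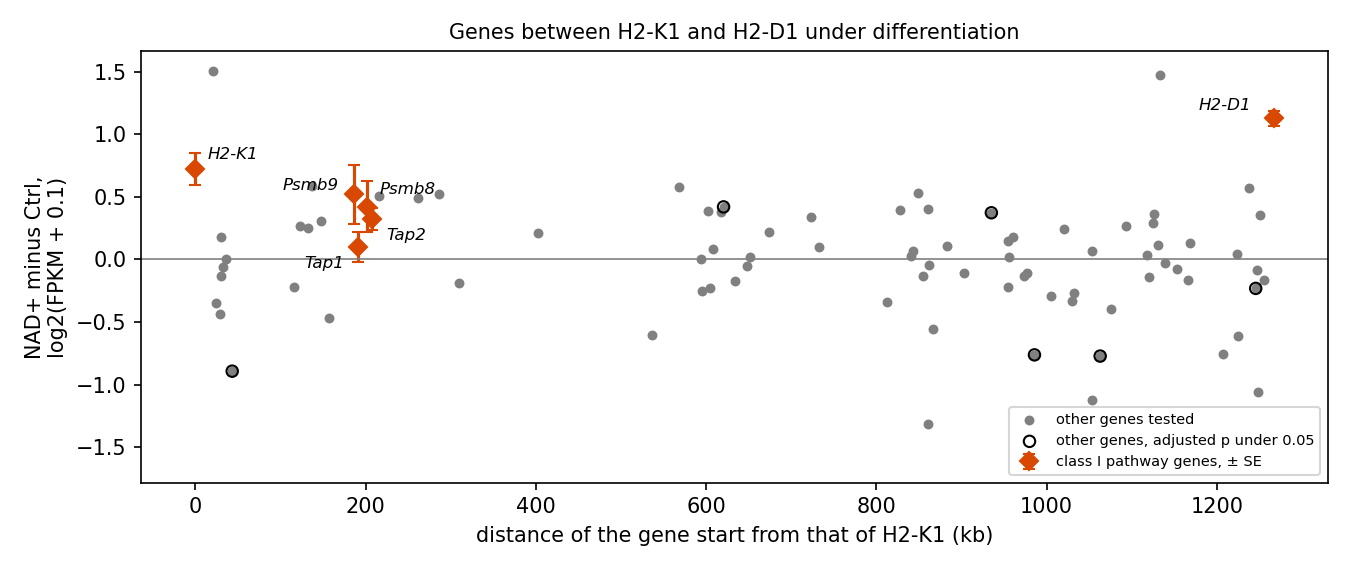
Log2 difference of NAD+ minus Ctrl under differentiation conditions against the distance of the gene start from that of H2-K1 in kb; diamonds with SE are the listed class I pathway genes, grey points the 83 other genes tested and circled points those with an adjusted limma p-value under 0.05. H2-D1 and H2-K1 stand at 1.13 and 0.72 at the ends of the interval, and the other genes scatter around 0.

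Across the 12 samples, the listed genes were not alike. The correlation of log2(FPKM + 0.1) of each gene with the mean of the others, over samples that share conditions and tables, was 0.99 for H2-D1, 0.97 for Nlrc5 and Tap2, 0.94 for Psmb8, between 0.83 and 0.87 for H2-K1, Tapbp, Tap1 and B2m, 0.05 for Psmb9 and -0.91 for Psmb10. Of 11641 other genes ranked by their correlation with the mean of the 10, the closest were Acad12, an acyl-CoA dehydrogenase gene (r = 0.98), Fgfr2, a fibroblast growth factor receptor (0.98), Slc39a1, a zinc transporter (0.98), Slc16a1, a monocarboxylate transporter (0.98), Pros1, the gene of protein S (0.98), and Ctsb, a lysosomal protease (0.98). Ctsb had means of 65.6 and 69.1 FPKM in proliferating Ctrl and NAD+ samples and of 185 and 298 FPKM in the differentiating ones. These correlations are descriptions over 12 samples in 4 groups.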

How the data were processed

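Total RNA of 12 samples of aNSPCs was sequenced. The authors mapped the reads to mm10 with Hisat2, counted uniquely mapped reads with FeatureCounts and deposited FPKM values for each condition. The program that computed FPKM is not given in the sources used here. The deposited columns of the authors' own comparison (fold change and its log2, p-value, q-value, direction and mark of significance) were not used. Of the per-sample columns, 0 were left out.

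The deposited FPKM values were used without further scaling. With 0.1 added and log2 taken, genes with a mean of at least 0.1 FPKM over the 6 samples of a condition (12 for the difference between conditions) were fitted with limma 3.58.1 in R 4.3.3 (moderated variance with a trend, two-sided). Genes were called at a Benjamini-Hochberg adjusted p-value under 0.05 over all genes tested. No set of genes was tested as a whole.

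The listed genes, the gene lists and the marker lists were chosen with earlier results of these data known. Of each list, the 3 largest rises and 3 largest falls called under differentiation conditions with a mean of at least 1 FPKM were named, with Psmb5, Psmb6, Psmb7, Ciita, Irf1 and Ifngr1, and the 6 genes closest in profile. Further genes (H2-Q7, H2-Q10, Cd1d1, Mr1, Cd74, Ifng and Ifnb1) were named after their values were seen. A few genes that this rule or the marker lists hold are not reported here. Positions come from GENCODE M21. Of the 55401 gene IDs, 55141 were found there. The code was tested on simulated data.

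Depth is unknown, so no counting error can be given. Alternatives were 1 or 0.01 added, no filter or a minimum of 1 FPKM, median-ratio scaling, quantile normalization, a replicate block, no moderation, the study's call rule and leaving out each sample. The call rule took a ratio of means above 2 in either direction, 0 being set to 0.0001, together with p under 0.05 before adjustment. The p-value was that of limma here. Python 3.11.15 with pandas 2.3.3, numpy 2.4.6, scipy 1.17.1 and matplotlib 3.10.9 was used for tables and figures.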

Additional observations from a re-analysis of the deposited data

Results flagged for a closer look

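The effect of NAD+ differed between the conditions for 3 class I heavy chain genes, by the contrast of differentiation minus proliferation in the limma fit of all 12 samples. H2-D1 had a difference of 0.90 (log2) with an adjusted p-value of 0.0177, higher in every NAD+ sample than in every Ctrl sample under differentiation conditions and overlapping under proliferating conditions. H2-Q4 had a difference of 1.30 with an adjusted p-value of 0.0305. It was at 1.61 to 2.58 FPKM in proliferating NAD+ samples and at 2.51 to 2.77 FPKM in proliferating Ctrl samples, beside 18.57 to 21.04 and 9.32 to 11.89 FPKM in the differentiating ones. H2-Q7 had a difference of 1.25 with an adjusted p-value of 0.0269, at 0.79 to 0.84 FPKM with NAD+ and 1.01 to 1.09 FPKM without it in proliferating samples, all lower with NAD+, and at 0.70 to 0.76 and 0.31 to 0.37 FPKM in differentiating ones, all higher. The H2-Q4 call was lost in 9 of the 12 fits that left out 1 sample (adjusted p-value 0.05355 to 0.0873) and the H2-Q7 call in 10 of them (0.0589 to 0.0856). Groups of 3 samples were not searched for single outlying samples.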

How the results depend on the processing

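H2-D1 and B2m were called higher under differentiation conditions in every fit, including those without any one sample. The study's rule for a call was used with the p-value of limma in place of the study's own. It called 795 of 19611 genes under differentiation and 559 of 18597 under proliferating conditions. Of the 10 genes, 1 (H2-D1) was called under differentiation conditions in place of 3. Of the other heavy chains, H2-Q7 was called under differentiation conditions, higher with NAD+. A different one, H2-Q10, under 1 FPKM, was called under proliferating conditions, lower with NAD+. Of the interval between H2-K1 and H2-D1, 2 genes were called under differentiation and 5 under proliferating conditions. Median-ratio scaling called 2 of the 10 genes in the difference between conditions, with H2-K1 added (adjusted limma p-value 0.04976). Under differentiation conditions it called 2 interferon and NF-kB regulators. Quantile normalization called 3 of these regulators under differentiation conditions, and a minimum of 1 FPKM called 2. The replicate block called 1 other heavy chain and 3 interval genes under differentiation conditions. Without moderation 0 regulators, 1 interval gene and 1 peptide loading partner were called under differentiation conditions. In the difference between conditions, 1 other heavy chain was called without the filter, with a minimum of 1 FPKM, with the block and without moderation, and 1 interval gene with 1 added. Without any one sample, the calls under differentiation conditions ranged from 2 to 3 for the 10 genes, 1 to 3 for the other heavy chains, 0 to 1 for the regulators, 0 to 1 for the loading partners and 2 to 4 for the interval, and in the difference between conditions from 0 to 1, 0 to 3 and 0 to 1 for the 10 genes, other heavy chains and interval. Under proliferating conditions 0 of the 10 genes passed in any fit. The cause of these changes was not tested.

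Log2 differences near 0 changed sign. Under proliferating conditions, B2m was at -0.0122 with median-ratio scaling and at -0.0736 to 0.2661 without any one sample, Tap2 at -0.0206 with quantile normalization and Psmb10 at -0.1491 to 0.0341 without any one sample. The difference between conditions of Psmb9 was 0.0128 with median-ratio scaling, 0.1189 with quantile normalization and -0.2985 to 0.0284 without any one sample.

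Over all genes, 1357 were called under differentiation conditions, 445 of them higher. Median-ratio scaling called 1145 (609 higher), quantile normalization 1161 (580 higher), the block 758, no moderation 594, and leaving out a sample 328 to 719. Under proliferating conditions, 27 were called, or 9 without the filter, 75 with a minimum of 1 FPKM, 60 with quantile normalization, 0 with the block or without moderation, and 0 to 36 without a sample. The difference between conditions called 91, or 139 with 1 added, 47 with the block and 12 to 195 without a sample. Median-ratio scaling moved its median over all genes from -0.16 to -0.01 (log2).

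The titles give groups the same replicate numbers. Deviations of same-numbered samples correlated at 0.03 to 0.04 under differentiation and 0.02 to 0.11 under proliferating conditions, so the numbers were not taken as pairs. Under differentiation conditions every NAD+ sample correlated best with the Ctrl sample of its own number, and under proliferating conditions NAD+ replicate 2 did not. With the replicate block, 3 of the 10 genes were called under differentiation conditions, 0 under proliferating conditions and 1 in the difference between conditions.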
